A study of Homo sapiens with 5 samples.

Results

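Transcripts of 54 genes that act in mitotic entry, the spindle, the kinetochore and cytokinesis were followed in HEK293 cells, a human line derived from embryonic kidney. The genes were chosen by function and looked up by symbol, and 53 of them were tested among 16310 genes of a count table of 16677. The remaining gene, NUSAP1, is not analysed here. One group was 2 libraries titled Control, of genotype WT, and the other was 3 libraries of genotype rs11607019, a T-to-C change in SIRT3, here called wild type and variant. All cultures were under basal conditions, with no treatment named. The labels do not say whether libraries came from separate clones or cultures, so p-values measure only the spread between these libraries, which may be technical.

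A cell enters mitosis when the kinase CDK1, bound to cyclin A or cyclin B, is freed of inhibitory phosphates by CDC25 phosphatases. Kinetochores then attach chromosomes to the spindle, and unattached kinetochores hold back the anaphase-promoting complex through the spindle checkpoint. Once CDC20 activates that complex, cyclin B and securin are destroyed, sister chromatids part and the cell is cleaved in cytokinesis. Most of these genes are transcribed late in the cell cycle, so in a dividing line such as HEK293 their level in bulk RNA reflects both how many cells are near mitosis and how much transcript each holds, which cannot be told apart here.

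Library totals ran from 17122569 to 17596084 counts. Levels are given as TMM-normalised CPM, a count scaled for the size and composition of its library. Of 7 markers of HEK293 4 were tested. VIM (328 to 618 CPM), KRT8 (226 to 371 CPM), KRT18 (45.5 to 95.1 CPM) and PAX2 (9.94 to 21.97 CPM) were detected in all 5 libraries. The other HEK293 markers, NEFL, NEFM and INA, are not analysed here. A marker of any cell type that was not tested is not read as absent from the cells. Of 5 blood cell markers 0 were tested. Of 7 fibroblast markers 2 were tested, COL1A1 at 28.4 to 46.3 CPM and COL3A1 at 1.26 to 2.65 CPM, and in neither did the groups separate.

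The members share features of their promoters that their selection did not use. Late cell-cycle genes are known to be held down and then switched on through the cell-cycle homology region (CHR), which is bound by MuvB complexes such as DREAM, and through CCAAT boxes, which are bound by NF-Y. RefSeq promoters of 300 bases on GRCh38.p14, from 250 before to 50 after the start, matched 44 members. The CHR letters TTTGAA, read on both strands, stood in 31 of 44 members (70.5%) and in 1015 of 10850 promoters of tested genes (9.35%). The form TTCGAA stood in 2 members and in 1.68% of all promoters, and either form stood in 32 members and 10.8% of all promoters. CCAAT, on both strands, stood in 33 members (75%) and in 36.5% of all promoters, and both elements stood together in 25 members (56.8%) and in 4.64% of all. A match is a run of letters and not a shown binding site.

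5 promoters are printed, from 250 bases before the start to base 30 of the transcript, because 3 of the genes (CDK1, KIFC1, HMMR) had the smallest p-values among the members and the other two (CCNB2, PLK1) are mitotic regulators whose groups overlapped. They lie at chr10:60778081-60778360 (CDK1), chr6:33391573-33391852 (KIFC1), chr5:163460382-163460661 (HMMR), chr15:59104896-59105175 (CCNB2) and chr16:23678639-23678918 (PLK1), all on the forward strand of GRCh38.p14. Capitals mark both CHR forms and CCAAT on either strand.
CDK1: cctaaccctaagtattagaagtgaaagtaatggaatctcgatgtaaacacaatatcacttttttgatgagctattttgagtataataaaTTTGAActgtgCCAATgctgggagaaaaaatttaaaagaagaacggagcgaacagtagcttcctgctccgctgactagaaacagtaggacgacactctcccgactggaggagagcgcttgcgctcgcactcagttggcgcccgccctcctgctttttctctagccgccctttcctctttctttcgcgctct
KIFC1: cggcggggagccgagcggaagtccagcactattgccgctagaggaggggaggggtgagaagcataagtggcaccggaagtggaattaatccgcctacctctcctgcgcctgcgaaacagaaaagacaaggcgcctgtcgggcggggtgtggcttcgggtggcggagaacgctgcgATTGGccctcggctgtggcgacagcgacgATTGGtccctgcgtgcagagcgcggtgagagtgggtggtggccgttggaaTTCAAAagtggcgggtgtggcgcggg
HMMR: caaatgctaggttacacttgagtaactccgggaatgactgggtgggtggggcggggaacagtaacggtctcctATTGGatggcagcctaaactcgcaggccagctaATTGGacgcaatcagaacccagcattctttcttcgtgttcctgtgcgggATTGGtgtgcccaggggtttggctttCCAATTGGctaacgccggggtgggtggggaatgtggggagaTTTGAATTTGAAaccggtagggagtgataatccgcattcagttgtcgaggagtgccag
CCNB2: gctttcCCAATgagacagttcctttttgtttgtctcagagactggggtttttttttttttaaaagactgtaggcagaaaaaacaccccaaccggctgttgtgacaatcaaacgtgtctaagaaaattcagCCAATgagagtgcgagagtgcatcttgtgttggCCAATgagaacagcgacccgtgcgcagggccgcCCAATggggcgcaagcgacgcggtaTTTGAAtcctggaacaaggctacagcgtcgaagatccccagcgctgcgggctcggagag
PLK1: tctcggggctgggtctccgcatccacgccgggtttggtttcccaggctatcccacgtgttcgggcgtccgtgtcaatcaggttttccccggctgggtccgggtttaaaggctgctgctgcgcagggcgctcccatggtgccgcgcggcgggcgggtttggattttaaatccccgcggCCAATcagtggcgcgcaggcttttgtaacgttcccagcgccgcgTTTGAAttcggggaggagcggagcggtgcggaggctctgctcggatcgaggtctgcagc
All 5 windows hold TTTGAA or TTCAAA, which is TTTGAA read on the other strand. In HMMR and CCNB2 it lies close before the start, with several CCAAT boxes upstream of it. PLK1 has it close before the start too, with a single CCAAT box upstream. In CDK1 it lies farther from the start, upstream of the only CCAAT box of the window, and in KIFC1 it lies just after the start. Where CCAAT boxes on opposite strands overlap, as in HMMR, each was marked.

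Set against wild type, the variant libraries showed no member past the threshold. By the quasi-likelihood test of edgeR 0 of 53 members passed an adjusted threshold of 0.05, beside 0.0% of all tested genes. DESeq2, which called 0.196% of all genes, and limma-voom, which called 0.0%, also gave 0 members. At an unadjusted p under 0.05 there were 3 members (5.66%), against 7.62% of all tested genes. DESeq2 gave the same 3 members against 7.4% of all genes, and limma-voom gave CDK1, KIFC1 and CDC25B against 7.19%. 1 was higher in the variant (KIFC1, where all genes gave 4.11%) and 2 were lower (CDK1 and HMMR, where all genes gave 3.51%). The groups did not overlap at 10 members (18.9%), against 24.8% of all tested genes. Of these, 4 were higher in the variant, where all genes gave 11.8%, and 6 were lower, where all genes gave 13.0%. Both shares were near the background and are no result about the members.

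The differences were also small in size. The members had 26 log2 fold changes above 0 and 27 below, with a median of −0.0029 beside 0.0030 over all tested genes, and a range from −0.58 for CDK1 to 0.46 for KIFC1. Their median absolute log2 fold change was 0.12 beside 0.20 over all genes. A fitted change of 1.5-fold or more was seen at 0 members and at 10.2% of all genes. The members are well expressed (median 112 CPM, against 22.6 CPM over all genes; lowest count 330), which gives them smaller errors: the median standard error (SE) was 0.17 for members and 0.23 over all genes. The 95% confidence interval lay within 1.5-fold in either direction for 33 of 53 members and within 2-fold for 52, UBE2C being the exception. For the other 20 members a change of 1.5-fold in at least one direction could not be set aside at this number of libraries.

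**Figure D1:**
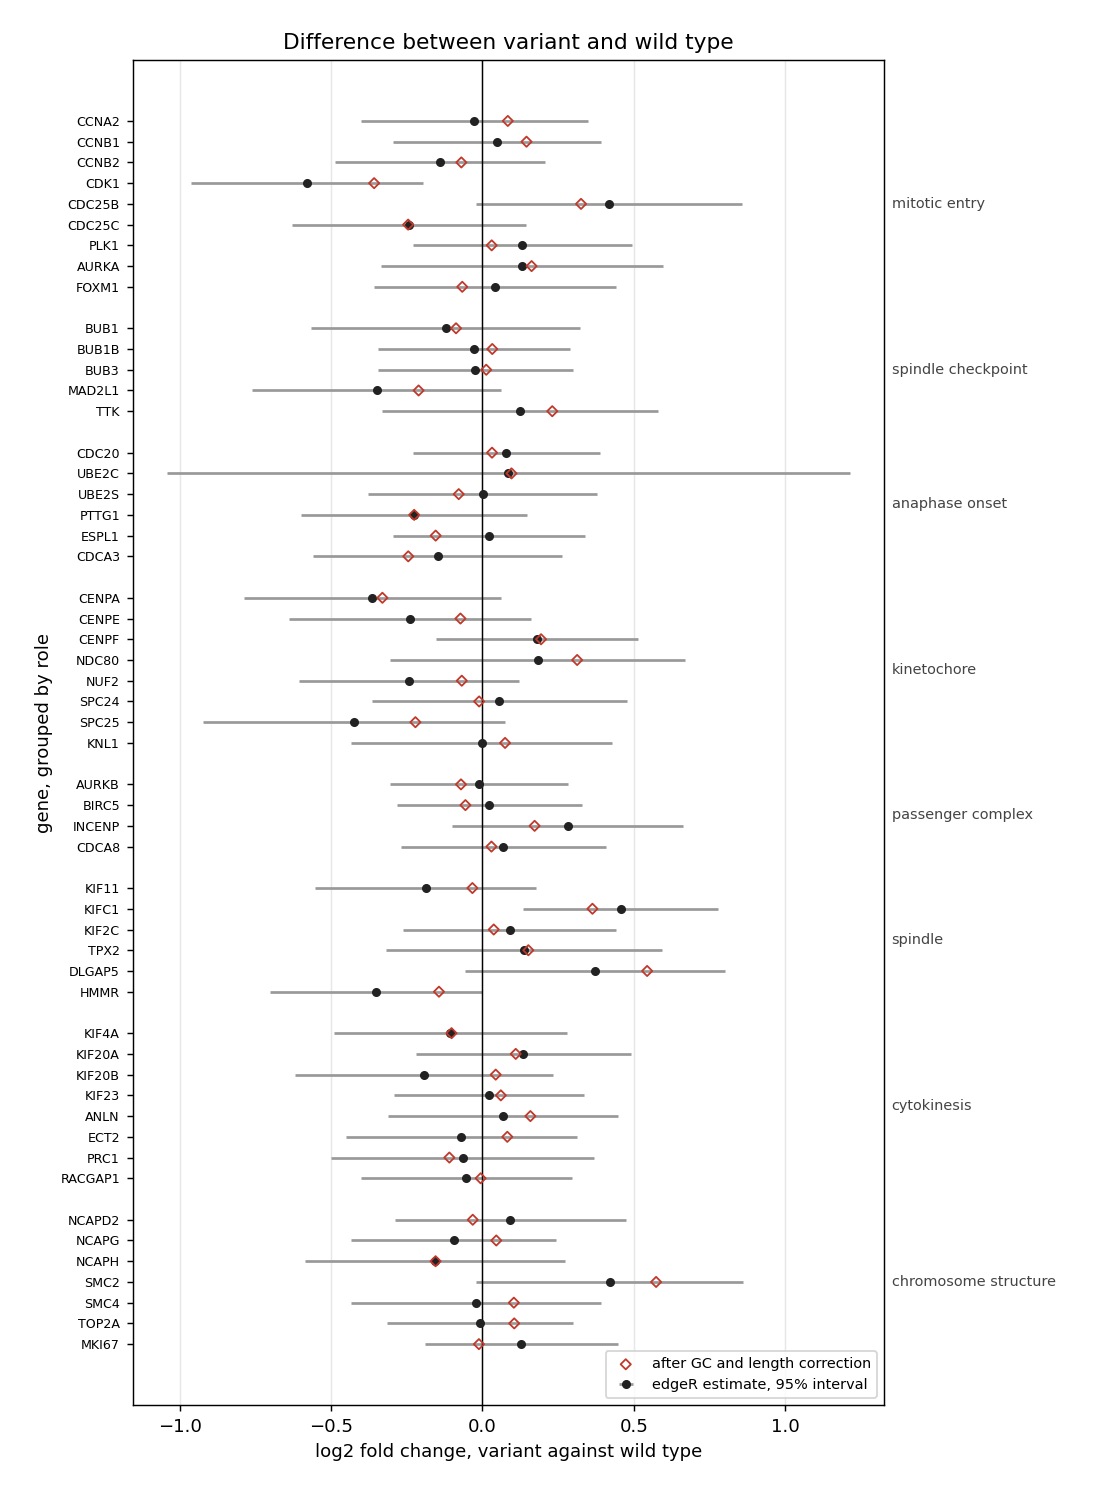
Fitted log2 fold change, variant over wild type (x axis), for the 53 tested genes, grouped by role (y axis). Black points and grey bars are edgeR estimates with 95% intervals, and open diamonds are estimates after a correction for GC content and length. CDK1 and KIFC1 lie farthest from 0, at −0.58 and 0.46, and UBE2C has the widest interval.

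The engine of mitotic entry is CDK1 with its cyclins. CDK1 (ENSG00000170312, chromosome 10, 60778331 to 60794852) stood at 257 CPM in wild-type 1 and 180.3 CPM in wild-type 2, and at 143, 141 and 154 CPM in variant 1 to variant 3. Values of each gene are given in this order throughout. Both wild-type libraries lay above all variant libraries, and wild-type 1 stood well above every other library. The log2 fold change was −0.58 (SE 0.17, 95% confidence interval −0.96 to −0.20). The quasi-likelihood test of edgeR gave an unadjusted p of 0.00727, which was 0.616 once adjusted. It rests in good part on wild-type 1: without that library it was −0.30, and without wild-type 2 it was −0.81. Over the alternatives the adjusted p of CDK1 in the tests run lay between 0.283, from DESeq2, and 0.998.

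The cyclins that pair with CDK1 did not separate the groups. CCNB1, the cyclin whose destruction ends mitosis, stood at 211 and 252 CPM in wild type and at 251, 212 and 255 CPM in the variant. CCNB2, the other B-type cyclin, stood at 108 and 126 CPM in wild type and 108, 96.8 and 113 CPM in the variant, and CCNA2 ran from 81.5 to 104 CPM with the groups overlapping. Per kilobase of exon, the ratio of CDK1 to CCNB1 levels was 0.791 and 0.466 in wild type and 0.370, 0.433 and 0.394 in the variant. That ratio was thus lower in each variant library than in both wild-type libraries, although wild-type 2 and variant 2 were close. CDK1 alone already separated these same libraries, so the ratio adds no support of its own.

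The activating phosphatases pointed in different directions. CDC25B, which is thought to start the activation of CDK1 at the centrosome, stood at 132 and 212 CPM in wild type and 238, 223 and 229 CPM in the variant. The groups did not overlap, but the low value of wild-type 1 made most of the gap: the log2 fold change was 0.42 (SE 0.20, adjusted p 0.657 in edgeR's test), 0.12 without wild-type 1 and 0.80 without wild-type 2. CDC25C, which amplifies the activation, stood at 39.9 and 43.4 CPM in wild type and 34.3, 32.4 and 38.9 CPM in the variant, with a log2 fold change of −0.24 (SE 0.17). Its groups were only just separated, between wild-type 1 and variant 3.

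The mitotic kinases and their transcription factor overlapped between groups. PLK1, a kinase of centrosome maturation and many later steps, stood at 193 and 259.9 CPM in wild type and 258, 234 and 253 CPM in the variant. AURKA, the kinase of spindle poles, stood at 82.1 and 104 CPM against 126, 82.0 and 96.2 CPM. FOXM1, the transcription factor that drives many G2/M genes, stood at 182 and 218 CPM against 202, 172 and 246 CPM. In each of these 3 genes the 2 wild-type libraries lay farther apart than the group means.

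Checkpoint genes hold the cell in metaphase until kinetochores are attached. Of the 5, 1 had a log2 fold change above 0 and 4 below, with a median of −0.03 and no group separated. BUB1B, which encodes the checkpoint inhibitor BUBR1, was among the most even members, at 113 and 112 CPM in wild type and 116, 108 and 109 CPM in the variant. BUB3, which brings BUB proteins to kinetochores, ran from 232 to 272 CPM. MAD2L1, which encodes the MAD2 protein that blocks CDC20, stood at 186 and 125 CPM in wild type and 116, 121 and 128 CPM in the variant. Its log2 fold change was −0.35 (SE 0.18) and became −0.03 without wild-type 1, the only library above the rest. TTK, the kinase MPS1 at the top of the checkpoint, had the highest log2 fold change of these genes, 0.12 (SE 0.20), at 79.6 and 63.9 CPM in wild type and 94.7, 76.8 and 63.1 CPM in the variant.

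Among genes of anaphase onset, CDC20, the activator of the anaphase-promoting complex, had the highest level of all members per kilobase of exon, 123 CPM per kilobase on average over the libraries. It stood at 227 and 257 CPM in wild type and 269, 255 and 243 CPM in the variant. ESPL1, which encodes separase, the protease that opens cohesin, was similarly even at 245 to 297 CPM. PTTG1, which encodes securin, the inhibitor of separase, stood at 118 and 124 CPM in wild type and 87.0, 106 and 117 CPM in the variant. The groups of PTTG1 did not overlap, but variant 3 came within a few CPM of wild-type 1, and without variant 1 the log2 fold change was −0.12 in place of −0.23 (SE 0.17). PTTG1 has near-identical relatives in the genome, with which 50-base reads can be shared.

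UBE2C varied more between libraries than any other member. This gene encodes the ubiquitin-conjugating enzyme that starts chains on substrates of the anaphase-promoting complex. It stood at 54.7 and 131 CPM in wild type and at 107, 51.3 and 137 CPM in the variant, a 2.67-fold distance between the highest and the lowest library, where the median over members was 1.35-fold. The low libraries were wild-type 1 and variant 2, 1 from each group, so the log2 fold change was 0.09 with a wide interval of −1.04 to 1.21. UBE2S, the enzyme that lengthens those chains, did not follow: at 184 and 209.6 CPM in wild type and 161, 214 and 216 CPM in the variant, it was high in variant 2. Per kilobase, the ratio of UBE2C to UBE2S ran from 0.520 in variant 2 to 1.44 in variant 1. GENCODE names 4 pseudogenes after UBE2C. In all 13 members, CDC20, UBE2S, AURKA, DLGAP5 and MKI67 among them, have a pseudogene named after them, and the counts of all 13 are uncertain where reads could be shared. CDCA3, a trigger of mitotic entry and a partner of the ubiquitin machinery, ran from 78.5 to 116 CPM with overlapping groups.

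**Figure D2:**
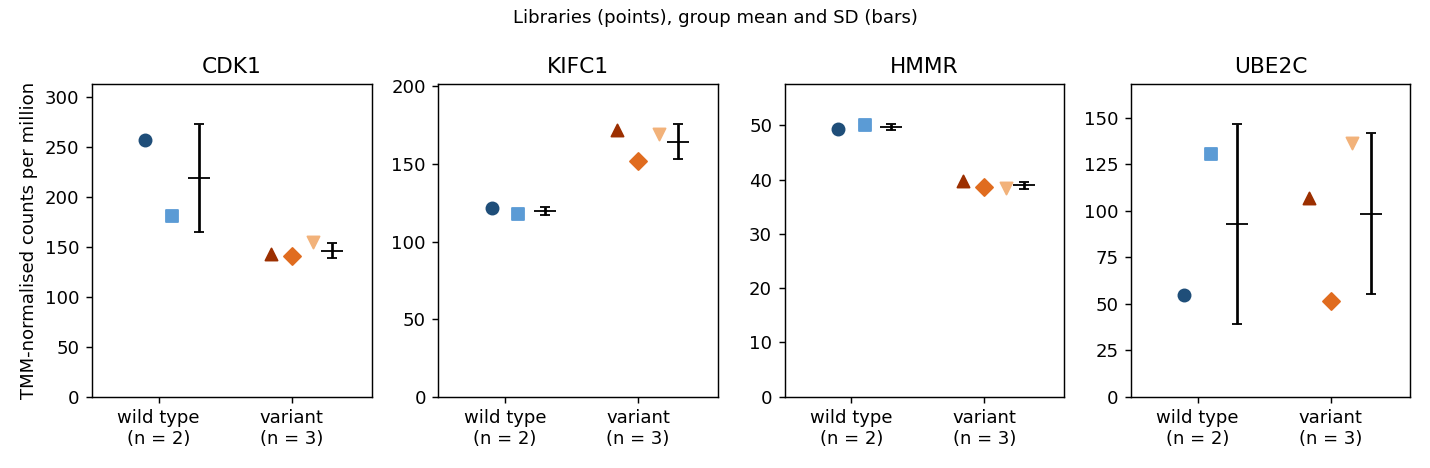
Level in CPM (y axis, from 0) of CDK1, KIFC1, HMMR and UBE2C in each library (points) with the group mean and SD (bars) for wild type (n = 2) and variant (n = 3). CDK1, KIFC1 and HMMR do not overlap between groups, and UBE2C has 1 low library in each group, at 54.7 and 51.3 CPM.

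The kinetochore genes had 3 log2 fold changes above 0 and 5 below, with a median of −0.12, which was −0.04 after correction for GC content and length and −0.20 without wild-type 2 or variant 1. CENPA, the histone H3 variant that marks centromeres, stood at 36.4 and 32.4 CPM in wild type and 27.6, 29.8 and 22.9 CPM in the variant. The groups did not overlap, with a log2 fold change of −0.36 (SE 0.19, adjusted p 0.676 in edgeR's test). CENPF, a large kinetochore protein of G2 and mitosis, was the most abundant of these genes per kilobase, at 292 and 268 CPM in wild type and 359, 285 and 308 CPM in the variant. The motor CENPE ran from 52.6 to 73.6 CPM and the scaffold KNL1 from 35.2 to 49.9 CPM, both with overlapping groups.

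The 4 subunits of the NDC80 complex, which holds microtubules, are described one by one. NUF2 stood at 70.4 and 59.995 CPM in wild type and 56.6, 51.1 and 57.5 CPM in the variant, without overlap. Its log2 fold change was −0.24 (SE 0.16), and −0.12 without wild-type 1. After correction for GC content and length NUF2 was at −0.07 and its groups overlapped. NDC80, its direct partner, stood at 57.5 and 65.7 CPM in wild type and 75.9, 51.0 and 82.8 CPM in the variant, at 0.18 (SE 0.22). SPC25 stood at 51.3 and 34.2 CPM against 35.4, 33.8 and 26.4 CPM, at −0.42 (SE 0.22), while SPC24 stood at 43.7 and 55.1 CPM against 43.8, 56.9 and 53.3 CPM, at 0.06 (SE 0.19). Per kilobase, the ratio of SPC25 to SPC24 was 1.81 in wild-type 1, its highest value, and 0.763 in variant 3, its lowest. Without wild-type 1 the estimates of both SPC25 and SPC24 were −0.10, and after correction for GC content and length they were −0.22 and −0.01. The estimate of NDC80 was 0.04 without variant 3. None of the 4 subunits passed the adjusted threshold.

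The chromosomal passenger complex corrects faulty attachments and later marks the cleavage site. Its kinase AURKB was the steadiest member of all, at 216 and 222 CPM in wild type and 211, 216 and 224 CPM in the variant, 1.06-fold from lowest to highest. BIRC5, which encodes survivin, stood at 331 and 378 CPM in wild type and 359.6, 341 and 381 CPM in the variant, and CDCA8, which encodes borealin, ran from 92.2 to 109 CPM. For AURKB the 95% interval of the log2 fold change was −0.31 to 0.28. INCENP, the scaffold of the complex, stood at 88.2 and 86.9 CPM in wild type and 124, 105 and 91.4 CPM in the variant. Its groups did not overlap, with a log2 fold change of 0.28 (SE 0.17) that was 0.16 without variant 1. After correction for GC content and length INCENP was at 0.17 and its groups overlapped.

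The spindle genes included the member with the highest log2 fold change, KIFC1. KIFC1 (ENSG00000237649, chromosome 6, 33391536 to 33409924), a minus-end-directed kinesin that bundles spindle poles and clusters extra centrosomes, stood at 122 and 118 CPM in wild type and 172, 152 and 169 CPM in the variant. All variant libraries lay above both wild-type libraries, and the gap between the groups was wider than the range within either. The log2 fold change was 0.46 (SE 0.14, 95% confidence interval 0.13 to 0.78). The same edgeR test gave an unadjusted p of 0.0104 and, adjusted over all genes, 0.616. It lay between 0.42 and 0.51 when each library was left out in turn, and its adjusted p was between 0.300 (DESeq2) and 0.998 over the alternatives.

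HMMR (ENSG00000072571, chromosome 5, 163460203 to 163491945), which encodes a hyaluronan receptor that also acts at spindle poles, stood at 49.3 and 50.01 CPM in wild type and 39.7, 38.6 and 38.5 CPM in the variant. Libraries of the same group were close, and every variant library lay below both wild-type libraries. The log2 fold change was −0.35 (SE 0.16), and edgeR gave an unadjusted p of 0.0492 and, adjusted, 0.653 (0.564 to 0.998 over the alternatives). When each library was left out in turn the unadjusted p lay between 0.0660 and 0.143. After correction for GC content and length it was −0.14 and the groups overlapped.

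The other spindle genes varied by library. TPX2, which activates AURKA on spindle microtubules, stood at 180.2 and 232 CPM in wild type and 286, 188 and 206 CPM in the variant. DLGAP5, a microtubule stabiliser near chromosomes, stood at 95.5 and 89.1 CPM in wild type and 139.8, 126 and 93.0 CPM in the variant, with variant 3 inside the wild-type range. KIF11, the kinesin Eg5 that pushes poles apart, ran from 122 to 161 CPM, and KIF2C, which depolymerises microtubules at centromeres, from 102 to 126 CPM. In each of these 4 genes the groups overlapped.

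None of the 8 cytokinesis genes separated the groups, and their log2 fold changes lay between −0.19 for KIF20B and 0.14 for KIF20A. The centralspindlin pair KIF23 and RACGAP1, which build the spindle midzone, stood at 169.8 and 173 CPM and at 133 and 164 CPM in wild type. In the variant KIF23 stood at 188, 165 and 169 CPM and RACGAP1 at 133, 144 and 153 CPM. Per kilobase, their ratio stayed between 0.718 and 0.965 over the 5 libraries. ECT2, the activator of RhoA at the cleavage furrow, ran from 62.5 to 79.9 CPM, the furrow scaffold ANLN from 123 to 162 CPM, the midzone kinesin KIF4A from 107 to 150.2 CPM, the kinesin KIF20A from 95.1 to 125 CPM and KIF20B from 50.7 to 75.5 CPM. PRC1, which bundles midzone microtubules, had the lowest level of all members per kilobase, and stood at 19.2 to 23.8 CPM. PRC1, BUB1B and CENPA each overlap another protein-coding gene on the same strand in GENCODE release 29, so reads there may be split or lost and their levels are uncertain.

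Genes of chromosome structure included the most abundant members. TOP2A, the topoisomerase that untangles sister chromatids, stood at 764 and 685 CPM in wild type and 798, 673 and 692 CPM in the variant. MKI67, the proliferation marker Ki-67 that coats mitotic chromosomes, stood at 612 and 606 CPM in wild type and 729, 689.8 and 579 CPM in the variant. Both overlapped between groups, and for TOP2A the 95% interval of the log2 fold change was −0.32 to 0.30.

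Condensin I, which compacts chromosomes, was uneven. SMC2 stood at 93.8 and 78.9 CPM in wild type and 104, 143 and 99.0 CPM in the variant, without overlap, at a log2 fold change of 0.42 (SE 0.20, adjusted p 0.657 in edgeR's test). Without variant 2, the highest library, it was 0.24. Its partner SMC4 stood at 146 and 122 CPM against 160.4, 119 and 116 CPM, at −0.02 (SE 0.18). The per-kilobase ratio of SMC2 to SMC4 was 0.843 and 0.845 in wild type and 0.850, 1.57 and 1.12 in the variant, so variant 1 was close to wild type and variant 2 was not. Of the other subunits, NCAPD2 ran from 286 to 405 CPM, NCAPG from 63.4 to 72.2 CPM and NCAPH from 81.4 to 126 CPM, all with overlapping groups.

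**Figure D3:**
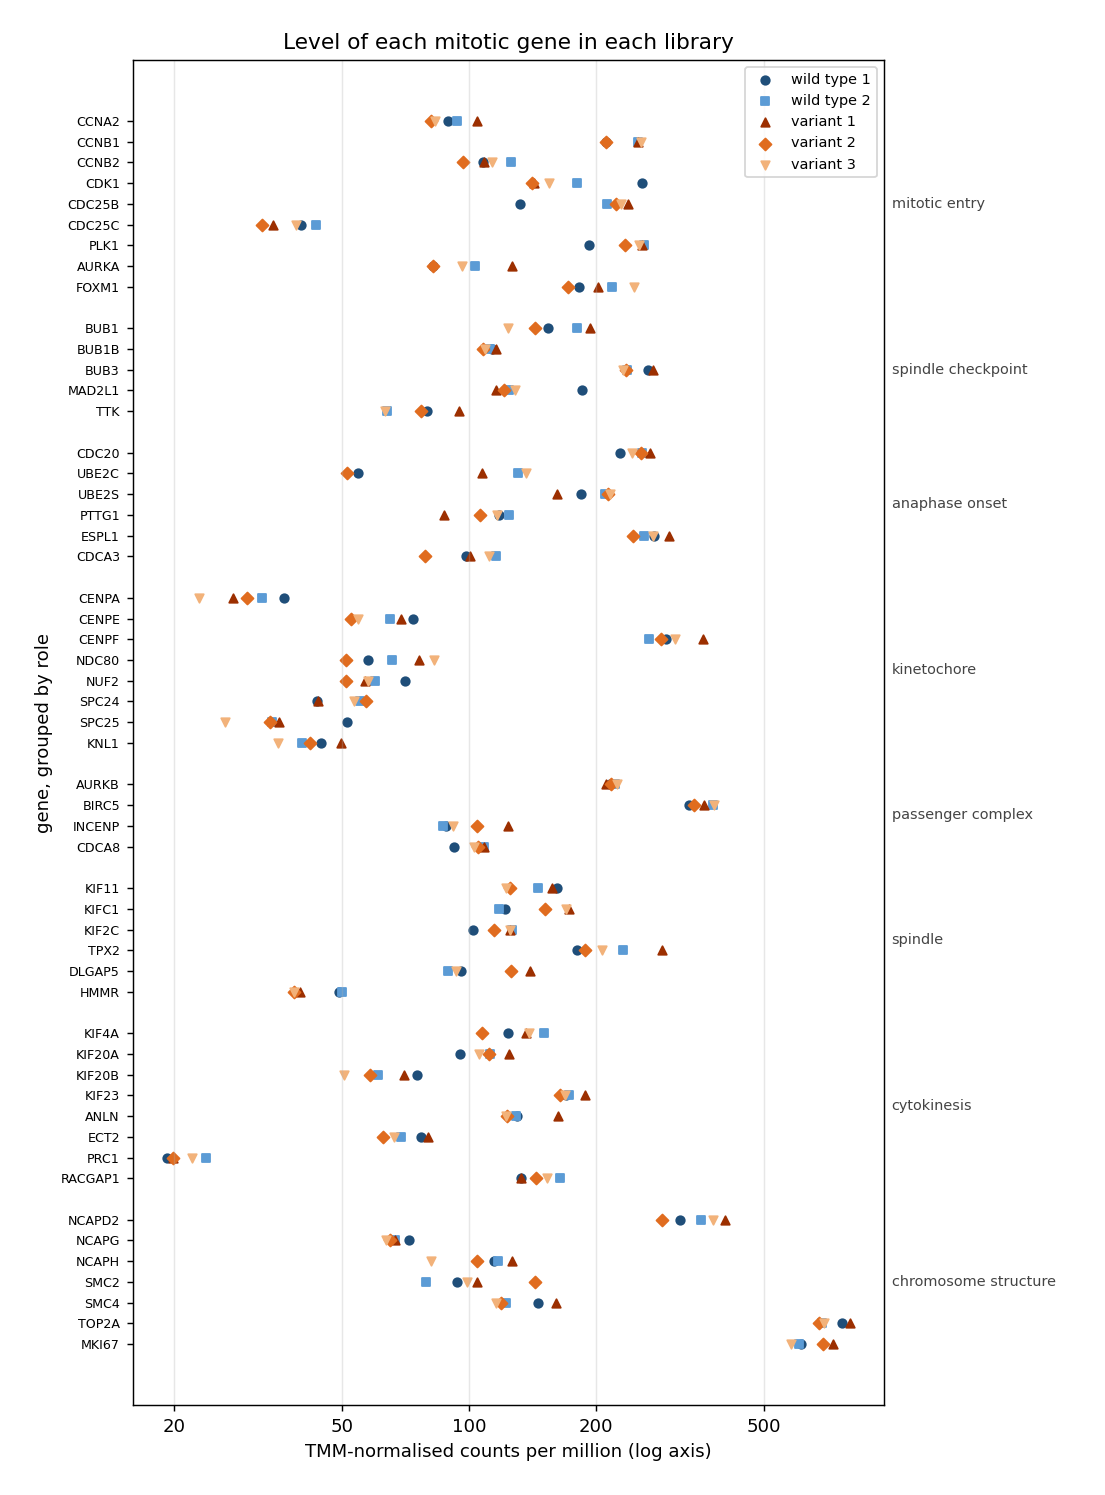
TMM-normalised CPM (x axis, log scale) of each of the 53 tested genes (y axis, grouped by role) in the 2 wild-type libraries (blue) and 3 variant libraries (brown to orange). Levels run from 19.2 CPM for PRC1 to 798 CPM for TOP2A, and for 43 genes blue and orange points overlap.

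The libraries were next compared over the list as a whole. Relative to the 5-library mean, the median log2 level of the members was −0.03 and 0.05 in the wild-type libraries and 0.12, −0.07 and −0.04 in the variant libraries. The wild-type values lay inside the range of the variant values. Variant 1 was the highest library for 24 of 53 members (45.3%), where it was highest for 21.8% of all tested genes. Variant 2 was highest for 2 members (3.77%), against 18.3% of all genes, and was the lowest for 18 members. The widest distance in the list level was therefore between variant libraries and not between the groups.

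Part of the pattern of single members followed the chromosome they lie on. On 5 chromosomes with members, 2, 9, 14, 18 and 20, the median of all tested genes deviated from the 5-library mean by more than 0.18 in some library. These chromosomes were singled out after the values were seen. Chromosome X fell just under the cut, with a median of 0.179 in variant 2. Its member KIF4A went the other way and was lowest in that library, at −0.28. On chromosome 2 the median was −0.24 in variant 3 and between 0.03 and 0.12 in the other libraries. All 4 members there, BUB1, CENPA, SPC25 and NCAPH, were lowest in variant 3, at −0.34, −0.36, −0.42 and −0.40. On chromosome 20 the median was 0.37 in variant 1 and between −0.12 and −0.05 elsewhere, and 3 of 4 members there, CDC25B, AURKA and TPX2, were highest in variant 1, at 0.23, 0.39 and 0.41. The fourth, UBE2C, was highest in variant 3. Variant 1 was also the highest library for 24 of all 53 members, and CDC25B lay below its chromosome median there.

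The other 3 chromosomes hold 1 member each. DLGAP5 on chromosome 14 (55148112 to 55191678) deviated by −0.16, −0.26, 0.39, 0.24 and −0.20 in the libraries in the order above, and the chromosome median by −0.16, −0.17, 0.28, 0.28 and −0.22. SMC2 on chromosome 9 (104094260 to 104141417) deviated by −0.12, −0.37, 0.03, 0.49 and −0.04, and its chromosome by −0.19, −0.19, −0.07, 0.28 and 0.18, so in variant 3 it was below its mean where the chromosome was above. NDC80 on chromosome 18 deviated by −0.19, 0.0026, 0.21, −0.36 and 0.34, and its chromosome by −0.04, −0.12, 0.19, −0.19 and 0.20. Taken less the chromosome median, the log2 fold change went from 0.37 to 0.06 for DLGAP5, from 0.42 to 0.07 for SMC2, from 0.18 to 0.02 for NDC80 and from 0.14 to −0.03 for TPX2. It kept more of its size for other members on these chromosomes, from −0.36 to −0.23 for CENPA and from −0.42 to −0.29 for SPC25. The change of CDC25B went from 0.42 to 0.25. That of BUB1 went from −0.12 to 0.015 and that of NCAPH from −0.16 to −0.02. AURKA went from 0.13 to −0.04 and UBE2C from 0.09 to −0.09. For KIFC1 the log2 fold change went from 0.46 to 0.34 and for CDK1 from −0.58 to −0.50, so both remained the extremes of the list. What makes whole chromosomes differ between the libraries was not tested.

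**Figure D4:**
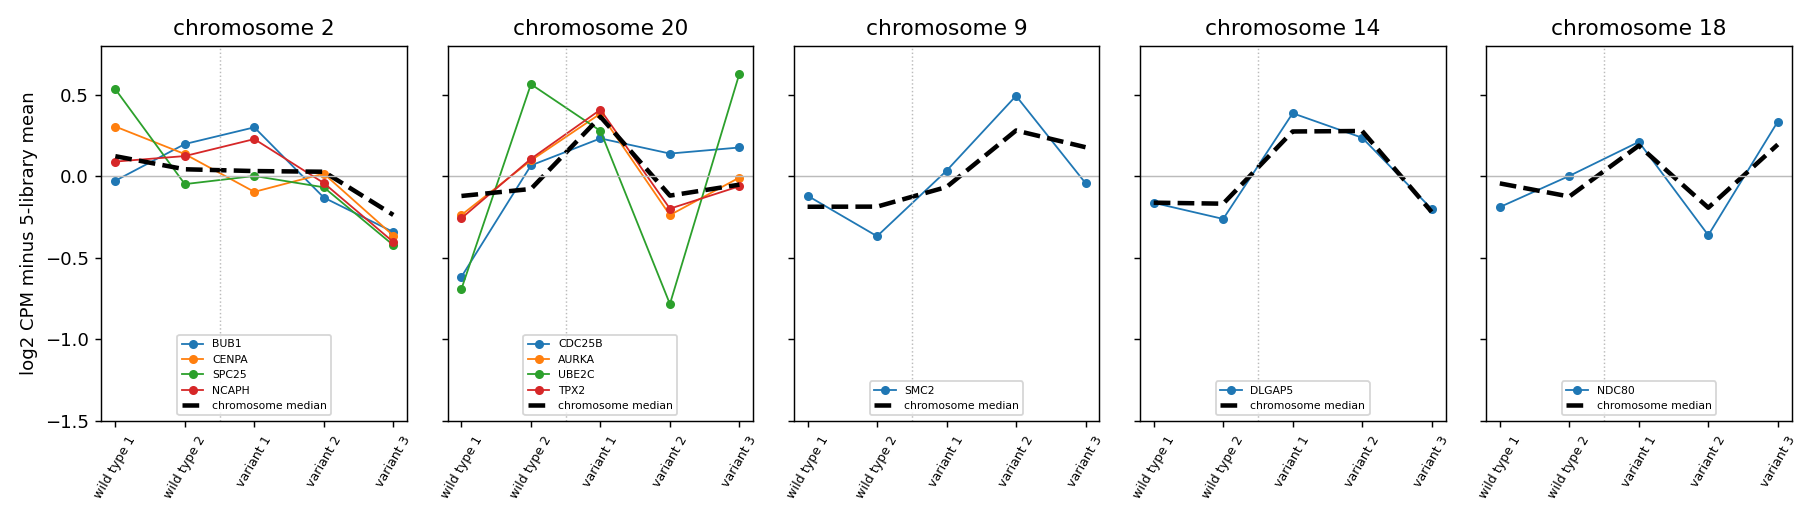
Log2 CPM minus the 5-library mean (y axis) in each library (x axis) for the members on chromosomes 2, 20, 9, 14 and 18 (thin lines) and for the median of all tested genes on the chromosome (dashed). The 4 members on chromosome 2 are lowest in variant 3, and DLGAP5 lies near its chromosome median in all 5 libraries.

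Base composition also moved with the differences. The GC content of the longest transcript had a median of 44.3% over the members and 48.6% over all tested genes. Across the 53 members, which share libraries and are not independent replicates, GC content had a Pearson correlation of 0.41 and a Spearman correlation of 0.42 with the log2 fold change. With the deviation of single libraries the Spearman correlation was −0.63 and 0.29 for the wild-type libraries and −0.06, 0.29 and 0.61 for the variant libraries. Over 16199 genes it was −0.42 and 0.04 for the wild-type libraries and −0.11, 0.23 and 0.37 for the variant libraries. The slopes of wild-type 1 and variant 3 were thus not particular to the members. Of the 17 members with the lowest GC content (34.2 to 40.1%) 13 were lower in the variant by estimate, and of the 17 with the highest (49.3 to 59.6%) 14 were higher.

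After a correction of each library for GC content and exon length the Pearson correlation across members was −0.06. Of the low-GC members 10 of 17, and of the high-GC members 8 of 17, then had an estimate above 0. CDK1 was at −0.36 and KIFC1 at 0.36, with unadjusted p-values of 0.0285 and 0.0443 in edgeR's test, and DLGAP5 and SMC2 were at 0.54 and 0.57, with 0.0128 and 0.0105. These 4 members at an unadjusted p under 0.05 stand beside 6.73% of all genes in that fit, and 0 members passed the adjusted threshold, the lowest adjusted p being 0.727. The groups did not overlap at 8 members, against 23.6% of all genes with the correction. The part of base composition in the differences between the groups was not tested beyond this correction.

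**Figure D5:**
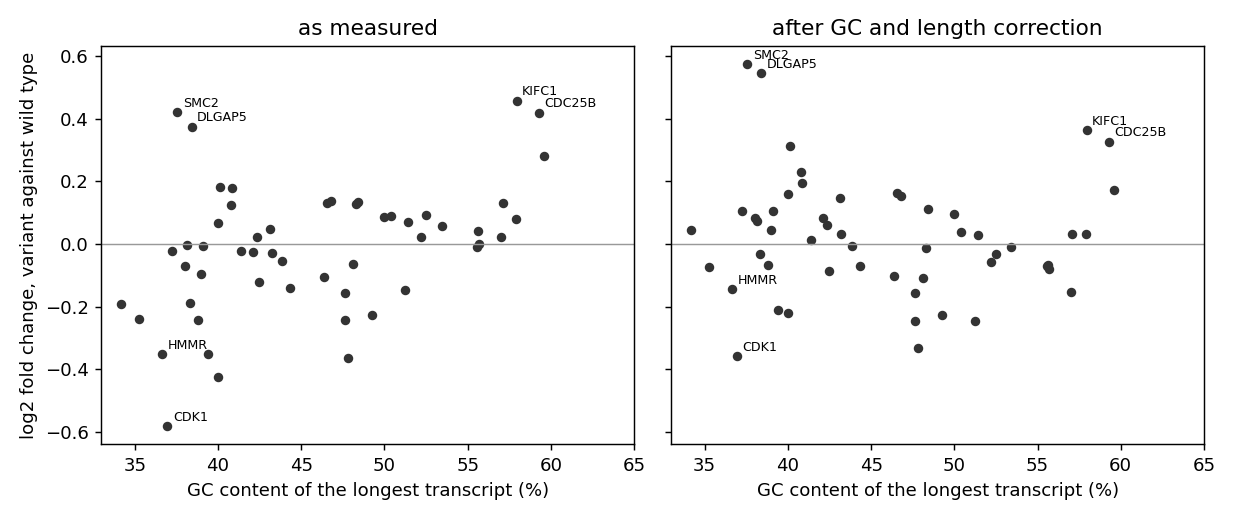
GC content of the longest transcript in percent (x axis) against the fitted log2 fold change, variant over wild type (y axis), for 53 members, as measured (left) and after correction for GC content and length (right). The points rise from left to right before the correction (Pearson 0.41) and not after it (−0.06).

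Related genes of the same pathways were listed by function, and edgeR's adjusted p was above 0.05 for all of them. Of 34 further G2/M genes 15 had log2 fold changes above 0 and 19 below (median −0.02), and 2 (5.88%) had an unadjusted p under 0.05, against 7.62% of all tested genes. Both were lower. PBK, a mitotic kinase, stood at 94.2 and 79.96 CPM in wild type and 55.9, 56.3 and 67.1 CPM in the variant (log2 fold change −0.54, SE 0.17). SKA2, of the SKA complex that couples kinetochores to microtubules, stood at 143 and 124 CPM against 96.3, 99.3 and 109 CPM (−0.39, SE 0.15). After correction for GC content and length PBK was at −0.37 and SKA2 at −0.18, with unadjusted p-values of 0.0335 and 0.220 in edgeR's test. Groups were separated at 6 of these 34 genes (17.65%), PBK and SKA2 included, where all tested genes gave 24.8%.

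Of 25 further kinetochore and condensin II genes 8 were above 0 and 17 below, with a median of −0.12. The 2 at an unadjusted p under 0.05 (8% of the list, against 7.62% of all tested genes) were CENPK at −0.60 (SE 0.21) and CENPP at 0.54 (SE 0.23). After correction for GC content and length CENPK was at −0.26 and CENPP at 0.38, with unadjusted p-values of 0.153 and 0.1003 in edgeR's test. The median of this list was −0.02 after correction for GC content and length. Of 15 core subunits of the anaphase-promoting complex with its activator FZR1, 5 were above 0 and 10 below, with a median of −0.09. At an unadjusted p under 0.05 there were 2 (13.3%), against 7.62% of all tested genes. Groups were separated at 6 (40%), against 24.8% of all tested genes. ANAPC2, the cullin subunit, stood at 92.8 and 99.5 CPM in wild type and 126, 143 and 143 CPM in the variant (0.51, SE 0.15), and ANAPC10, a substrate-binding subunit, at 8.39 and 6.67 CPM against 3.93, 4.71 and 5.25 CPM (−0.70, SE 0.27). With the same correction ANAPC2 was at 0.34 and ANAPC10 at −0.51, with unadjusted p-values of 0.0245 and 0.0811 in edgeR's test. The 15 cohesin genes (median −0.06) and the 13 MuvB and retinoblastoma family genes (median −0.03) had 0 members at an unadjusted p under 0.05.

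A further list held 13 brakes on the cell cycle, at mitotic entry or earlier, such as WEE1, the checkpoint kinases and the CDK inhibitors. Of these 7 were above 0 and 6 below, with a median of 0.01. At an unadjusted p under 0.05 there was 1 (7.69%), against 7.62% of all tested genes. CDKN2A, which encodes the CDK4 inhibitor p16 and ARF, was the only one at an unadjusted p under 0.05, at 157 and 157 CPM in wild type and 261, 247 and 191 CPM in the variant (0.57, SE 0.17). After correction for GC content and length CDKN2A was at 0.45, with an unadjusted p of 0.0459 in edgeR's test. CDKN2A, ANAPC2 and CENPP all lie on chromosome 9, and less the median of that chromosome they were at 0.22, 0.16 and 0.19. Among 20 tested G1/S genes 7 were above 0 and 13 below, with a median of −0.12. E2F3, a transcription factor of S-phase entry, was at 0.42 (SE 0.17), and MCM6, a subunit of the replicative helicase, was at −0.44 (SE 0.14), with 283 and 279.7 CPM in wild type and 205, 231 and 186 CPM in the variant. After correction for GC content and length E2F3 was at 0.43 and MCM6 at −0.37, with unadjusted p-values of 0.0210 and 0.0202 in edgeR's test. No other G1/S gene of the list had an unadjusted p under 0.05 before the correction. The 2 genes are 10% of the list, against 7.62% of all tested genes.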

How the data were processed

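Raw counts per gene were deposited for 5 libraries. Per the submitters' processing notes HISAT2, SAMtools and HTSeq were used with build hg38, with no versions or settings named. Per the labels' protocols the libraries were strand-specific and sequenced as 50-base single reads. Whether counting used the strand is not given in the sources used here, and 16 members overlap a protein-coding gene on the opposite strand. Every gene in the deposited table has at least 3 counts in every library, and no column was left unmatched. Totals were 17122569 to 17596084 counts, and the fewest counts of any member in a library were 330.

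Genes were filtered with filterByExpr of edgeR 4.0.16 (R 4.3.3), scaled by TMM and compared with the robust quasi-likelihood F test, two-sided, with group as the only term. Benjamini-Hochberg adjustment ran over 16310 genes at a threshold of 0.05. The GC and length correction used splines with 5 degrees of freedom per library over 16199 genes. DESeq2 1.42.0 and limma 3.58.1 gave alternatives, and deviations used log2 CPM with a prior count of 2. The tests were checked on simulated counts. Names came from a gene name table (16627 of 16677 identifiers), positions and lengths from GENCODE release 29 on GRCh38. Members and lists were chosen with earlier results of these data known. Members were named if their unadjusted p was under 0.05, if the groups did not overlap, or if they had the highest level per kilobase or the extreme fold change of their role group. The remaining members named were added to account for all of them. Genes of related lists were named at an unadjusted p under 0.05.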

Additional observations from a re-analysis of the deposited data

How the results depend on the processing

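Over 14 alternatives, in every fit that gave a test 0 members had an adjusted p under 0.05, with a lowest adjusted p of 0.283, from DESeq2. The 10 fold changes of members with an unadjusted p under 0.05 or separated groups kept their direction in all 140 values. This was largely fixed by their choice: at all 10 the groups were separated in these same libraries. Leaving out a library cannot make such groups cross, so the steady direction adds no support. The median over the members stayed between −0.0580, without variant 1, and 0.0383, without variant 2. Leaving out single libraries moved the count at an unadjusted p under 0.05 from 3 to between 1, without wild-type 1, and 4, without wild-type 2 or variant 3. It moved the count of members with separated groups from 10 to between 13 and 26; it was 20 without wild-type 1, 26 without wild-type 2 and 25 without variant 1. These comparisons set fewer libraries against each other, which makes separation easier. The share over all tested genes was not computed for them, so their counts of separated groups are no result about the members. A fit that leaves 1 wild-type library assumes that it varies like the variant libraries. With the replicate number as a block, 3 members had an unadjusted p under 0.05 and the median was 0.0015; HMMR, at 0.0820, was no longer among them and DLGAP5, at 0.0161, was. The block changed no adjusted call. The labels do not say that a number pairs libraries. With group means removed, the deviations of same-numbered libraries had correlations of 0.12 for number 1 and −0.11 for number 2. Libraries with different numbers gave −0.22 to 0.22. The deviations of the 2 wild-type libraries then mirror each other, so these values cannot decide on pairing. Totals were 17122569 to 17596084 counts and wild type had 2 libraries; the share of depth and of library number in what could be detected was not tested.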
